A study of Homo sapiens with 2 samples.

Results

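The 300 positions of human 28S rRNA that end at position 3900 were examined in 2 CLIP-seq libraries from U2OS cells, a human osteosarcoma line. CLIP-seq sequences the RNA fragments that come down with a protein. The 300 positions are part of the 6940 positions of 18S and 28S rRNA for which coverage was deposited, and they were chosen by their number alone. They cover about the part of domain IV of the large subunit that follows expansion segment 27, a long RNA insertion, and hold the helices that face the small subunit. Helix names are approximate. The study compared 1 pull-down labelled ZAK-alpha-RBR with 1 mock pull-down, to find where on the ribosome a construct of ZAKα lies. ZAKα is the long isoform of the kinase MAP3K20, which senses stalled ribosomes and starts the ribotoxic stress response. The labels give neither the meaning of RBR nor the content of the mock pull-down. Each group is a single library from 1 cell line, so there was no replicate check and no test between the groups, and every interval covers the counting error of reads only.

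The ribosomal subunits are held together by bridges, many of them RNA to RNA. In domain IV, helices 68, 69 and 71 lie on the face of the large subunit that meets the small one. Helix 69 is a short hairpin whose loop reaches across to the decoding helix of the small subunit and touches the transfer RNAs, and helix 71 also contacts that decoding helix.

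The sequences shown are those of the 4 runs of at least 5 neighbouring positions at which coverage was at least 2-fold lower with ZAK-alpha-RBR, printed with 8 positions on each side. Also shown, with 10 positions on each side, are 2 conserved motifs: the loop of helix 69, and a strand downstream of it labelled helix 71. That second label is approximate, and the strand lies before the next hairpin of 6 pairs, at 3791 to 3809, and not in it. Values given for this strand are therefore not values of that hairpin. All sequences are taken from the deposited table and written 5′ to 3′, with the positions of the run or of the motif in capitals. Numbers are those of the capitals, counted from the 5′ end of 28S rRNA.
Lower run at 3651 to 3655: auuaaaacAAAGCaucgcgaa
Lower run at 3718 to 3745: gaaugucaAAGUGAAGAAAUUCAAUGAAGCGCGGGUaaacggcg
Helix 69 loop at 3758 to 3764: acggcgggagUAACUAUgacucucuua
Helix 71 strand at 3774 to 3780: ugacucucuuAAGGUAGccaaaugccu
Lower run at 3813 to 3820: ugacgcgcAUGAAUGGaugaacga
Lower run at 3856 to 3877: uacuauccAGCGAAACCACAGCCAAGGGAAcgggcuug
Each motif, searched as UAACUAU and AAGGUAG on the strand of the rRNA, occurred 1 time in 28S and 0 times in 18S, and both lay inside the range. A further run of the same kind was at least 2-fold higher, and all 5 runs began with an A. In 4 of them that A directly followed a C, and in the run at 3718 to 3745 it stood 1 position further on. How often runs elsewhere begin in this way was not counted. In both rRNAs as a whole, ZAK-alpha-RBR depth changed at least 1.5-fold at 52.3% of the 256 steps from C to A. Across all other steps the share was 5.04%.

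Both libraries covered the range deeply. Read depth per position had a median of 1193.5 reads with ZAK-alpha-RBR (107 to 2560) and 17243.5 reads with the mock (3887 to 33826). Summed over all rRNA positions, which is not the total of reads sequenced, the mock depth was 11.5-fold higher. Depths were therefore expressed in parts per 1000000 of the library's summed coverage (ppm). Of all ZAK-alpha-RBR coverage 5.57% fell in the range (95% exact Clopper-Pearson interval 5.24 to 5.93), and of all mock coverage 6.67% did (6.51 to 6.83). These intervals rest on the smallest number of reads each library can hold, 17111 for ZAK-alpha-RBR and 98906 for the mock. The range is 4.32% of the length, so in both libraries it was covered above the average position. Its ZAK-alpha-RBR share was 0.836 times its mock share.

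**Figure D1:**
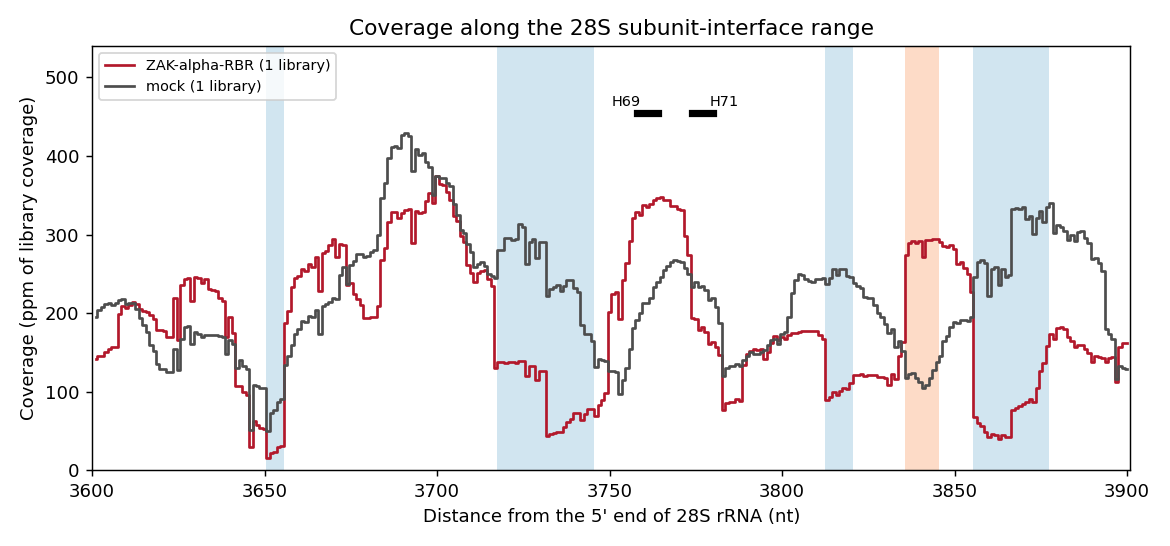
Coverage in ppm of each library's summed coverage at each of the 300 positions, with ZAK-alpha-RBR in red and mock in grey, 1 library each. Pale blue bands are the 4 runs at least 2-fold lower with ZAK-alpha-RBR and the pale orange band is the run at least 2-fold higher. Black bars mark the helix 69 motif and the motif labelled helix 71. The red line drops at the left edge of the blue bands, or 1 position before it for the band at 3718 to 3745. It lies above the grey line over the helix 69 motif and in the orange band.

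Lower positions outnumbered higher ones. On the log2 ratio of ZAK-alpha-RBR over mock, with 1 ppm added to both, 63 of the 300 positions (21.0%) were at least 2-fold lower with ZAK-alpha-RBR, where 11.9% of all 6940 positions were. At least 2-fold higher were 12 positions (4.0%), against 9.31% of all positions. At least 4-fold lower were 19 positions (6.33%), against 2.55% of all positions, and at least 4-fold higher were 0, against 0.749%. The median log2 ratio of the range was -0.33, and that of all positions was 0.10. Neighbouring positions share reads, so these are not separate observations.

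The 63 lower positions all lay in the 4 lower runs, and 10 of the 12 higher positions lay in the run at 3836 to 3845. Of all 6940 positions, 11.4% were in lower runs of at least 5 positions and 8.11% in higher runs. Summed, the 4 lower runs held 0.527% of ZAK-alpha-RBR coverage and 1.58% of mock coverage. The other 227 positions, outside all 5 runs, held 4.76% of ZAK-alpha-RBR coverage and 4.97% of mock coverage, and their median log2 ratio was -0.071. The lower runs alone differed by -1.05 percentage points of coverage, the higher run by 0.169 and the other 227 positions by -0.211. The whole range differed by -1.09. These runs were chosen by the ratio itself, so the values describe them and are no test.

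**Figure D2:**
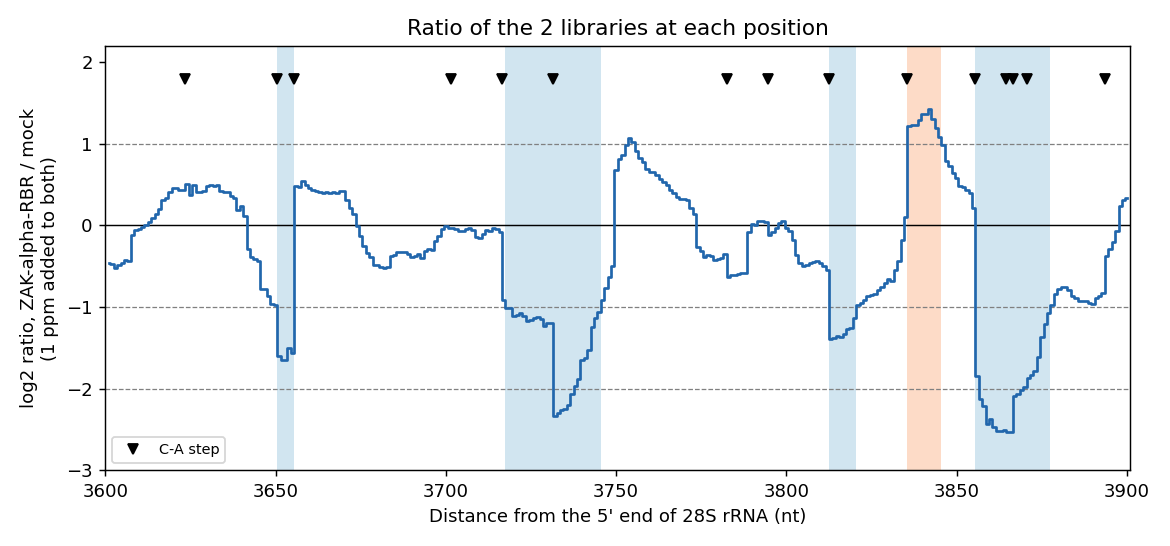
The log2 ratio of ZAK-alpha-RBR over mock, with 1 ppm added to both, at each of the 300 positions, with dashed lines at 2-fold and 4-fold and triangles at the 15 steps from C to A. Blue and orange bands mark the lower and higher runs. The line falls below -2 in the runs at 3718 to 3745 and 3856 to 3877, and its highest value is 1.42.

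In the first part of the range, before the strands of helix 68, the means were close while single positions went both ways. The log2 ratio was -0.52 at 3603, 0.51 at 3624 and -0.97 at 3650. The first 25 positions, up to the G at 3625, averaged 182 ppm with ZAK-alpha-RBR and 181 ppm with the mock. From 3626 to 3650 the means were 169 ppm with ZAK-alpha-RBR and 149 ppm with the mock, and toward its end both libraries thinned over a stretch rich in A and U. The lowest point of each library was the same position, the A at 3651, with 107 reads for ZAK-alpha-RBR (95% exact Poisson interval 87.7 to 129) and 3887 reads for the mock (3766 to 4011).

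The run that starts there, 3651 to 3655, averaged 24.4 ppm with ZAK-alpha-RBR and 75.2 ppm with the mock, 3.08-fold lower. At its start the ZAK-alpha-RBR library had 362 reads at the C at 3650 and 107 at the A at 3651, and the mock had 8245 and 3887. Its end was the sharper change. Between the C at 3655 and the A at 3656 the ZAK-alpha-RBR depth went up 6.20-fold, with 207 and 1283 reads, and the mock depth went up 1.46-fold, with 7181 and 10518 reads. From 3656 to 3683 the libraries were close, at 241 ppm with ZAK-alpha-RBR and 223 ppm with the mock. Of these 28 positions 18 were higher with ZAK-alpha-RBR, where 54.5% of all 6940 positions were.

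The most covered stretch of the range lay next to it. In the mock the 5 highest positions were 3687, 3688, 3690, 3691 and 3692, and the G at 3691 had 2268 reads with ZAK-alpha-RBR (332 ppm) and 33826 reads with the mock (430 ppm). In the ZAK-alpha-RBR library the 5 highest were 3698, 3700, 3701, 3702 and 3703. There the libraries were close: the C at 3700 had 2560 reads with ZAK-alpha-RBR (374 ppm) and 29526 reads with the mock (375 ppm), a fold of 0.999 (95% interval of the ratio of the 2 depths 0.959 to 1.04). Over 3684 to 3716 the means were 308 ppm for ZAK-alpha-RBR and 351 ppm for the mock.

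The longest lower run, at 3718 to 3745, lay just upstream of helix 69, where the approximate names place the later part of helix 68. Its mean was 96.6 ppm with ZAK-alpha-RBR and 253 ppm with the mock, 2.62-fold lower. Depth went down in 2 stages. Across the step from 3716 to 3717 the ZAK-alpha-RBR library had 1605 reads at the C and 887 at the A, while the mock had 19505 and 19256. Across the step from 3731 to 3732 the ZAK-alpha-RBR library had 860 reads at the C and 295 at the A, and the mock had 22867 and 17419. The first stage, 3717 to 3731, averaged 132 ppm with ZAK-alpha-RBR and 287 ppm with the mock, 2.17-fold lower. The second, 3732 to 3749, averaged 66.3 ppm for ZAK-alpha-RBR and 199 ppm for the mock, 2.99-fold lower. The A at 3732 had the lowest ratio of the run, 5.13-fold lower with ZAK-alpha-RBR (4.57 to 5.77). The log2 ratio was -1.53 at the G at 3742 and -0.49 at the C at 3749.

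A minimum-energy fold of the range's own 300 bases, computed with RNAfold without partners elsewhere in the rRNA, pairs 3697 to 3701 with 3742 to 3746, 3703 to 3707 with 3737 to 3741, and 3709 to 3713 with 3728 to 3732. The strands of this predicted hairpin differed in their ratio, but the fold was added after the profiles were seen. The 5′ strand, 3697 to 3713, had 313 ppm for ZAK-alpha-RBR and 329 ppm for the mock, with log2 ratios between -0.19 and -0.0017. The stretch with the 3′ strand, 3728 to 3746, had 74.8 ppm for ZAK-alpha-RBR and 226 ppm for the mock. Of its 19 positions 18 were at least 2-fold lower, where 11.9% of all 6940 positions were. All but its last position lie in the lower run at 3718 to 3745, which was chosen by the ratio itself, so this contrast is no test. The lower ratio began ahead of this strand, at 3717, so the contrast is not one of the strands alone. Over the whole fold, the median log2 ratio was -0.18 at the 190 positions predicted to pair and -0.41 at the 110 others. The prediction is no measurement of the structure in the ribosome.

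Helix 69 was on the higher side. The hairpin of 6 pairs and a loop of 7 bases at 3753 to 3771 was found both as a perfect stem and in the predicted fold, and its loop, 3759 to 3765, takes in all but the first base of the motif. All 19 of its positions were higher with ZAK-alpha-RBR, where 54.5% of all 6940 positions were. The hairpin averaged 318 ppm for ZAK-alpha-RBR and 211 ppm for the mock, a 1.51-fold difference, or 0.59 on the log2 scale. Of the single positions outside the range, 75.2% had a log2 ratio of at most 0.6. Neighbouring positions of the hairpin share reads. The ratio was largest at the 5′ side, where the G at 3754 had 1651 reads for ZAK-alpha-RBR and 9011 for the mock and was 2.11-fold higher (2.00 to 2.22). In the loop the U at 3764 had 2366 reads for ZAK-alpha-RBR and 18835 for the mock, 1.45-fold higher (1.39 to 1.51). The ZAK-alpha-RBR excess began at the step from the C at 3749, with 672 reads, to the G at 3750, with 1379. At the same step the mock had 10931 and 9929 reads. From 3750 to 3773 all 24 positions were higher with ZAK-alpha-RBR. Of these 24, 2 were past 2-fold, where 9.31% of all positions were at least 2-fold higher.

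With 10 positions on each side, the segment of the helix 69 motif had 283 ppm for ZAK-alpha-RBR and 200 ppm for the mock, which is 0.50 on the log2 scale. With 20 positions on each side, which takes in the end of the lower run, it was 0.081. The segment of the motif labelled helix 71 had 209 ppm in both libraries, with a log2 ratio of -0.00026 that changes sign with the scaling. That segment joins 2 unlike parts, the end of the higher stretch around helix 69 and a lower part. The boundary was the step from the U at 3773 to the A at 3774, the first base of the motif, where the ZAK-alpha-RBR library had 1874 and 1324 reads and the mock had 19643 and 18327. From 3774 to 3782, which holds the whole motif, all 9 positions were lower with ZAK-alpha-RBR, at 172 ppm against 222 ppm for the mock, 1.29-fold lower. Of all 6940 positions 54.5% were higher with ZAK-alpha-RBR.

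Downstream of the motif labelled helix 71 the sign of the difference alternated. Over 3783 to 3812 the means were 149 ppm with ZAK-alpha-RBR and 181 ppm with the mock. This part holds the hairpin of 6 pairs at 3791 to 3809, which had 166 ppm with ZAK-alpha-RBR and 191 ppm with the mock. At the next step the ZAK-alpha-RBR depth was 1142 reads at the C at 3812 and 613 at the A at 3813, and the mock depth was 19235 and 18668. The lower run that starts there, 3813 to 3820, averaged 99.9 ppm for ZAK-alpha-RBR and 249 ppm for the mock, 2.49-fold lower, and its lowest ratio was at the A at 3813, 2.64-fold lower (2.44 to 2.87).

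The higher run, at 3836 to 3845, was the strongest excess of the range. It averaged 288 ppm with ZAK-alpha-RBR and 119 ppm with the mock, 2.42-fold higher. The C at 3842 had 2005 reads with ZAK-alpha-RBR (1918 to 2095) and 8573 reads with the mock (8392 to 8756), 2.69-fold higher (2.57 to 2.83). The ZAK-alpha-RBR profile formed a block of 20 positions from 3836 to 3855, with between 1553 and 2010 reads, and the lowest mock depth of the block was 8218 reads. Both edges of the block were steps from C to A, and at both the mock moved the other way. At the left edge the ZAK-alpha-RBR library had 1116 reads at 3835 and 1872 at 3836, and the mock had 11939 and 9213. At the right edge the ZAK-alpha-RBR library had 1553 reads at 3855 and 462 at 3856, and the mock had 15375 and 19348.

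That right edge opened the deepest lower run, 3856 to 3877, with 74.8 ppm for ZAK-alpha-RBR and 288 ppm for the mock, 3.86-fold lower. Here 13 of the 22 positions were at least 4-fold lower, where 2.55% of all positions were. The lowest ratio of the range was at the A at 3865, with 286 reads for ZAK-alpha-RBR (254 to 321) and 19367 reads for the mock (19095 to 19642), 5.88-fold lower (5.23 to 6.63). From 3856 to 3866 the mean was 48.5 ppm with ZAK-alpha-RBR and 251 ppm with the mock, 5.19-fold lower. From 3867 to 3893 it was 136 ppm for ZAK-alpha-RBR and 307 ppm for the mock, 2.25-fold lower. The ZAK-alpha-RBR value was below the mock value at all 27 positions, and above it at 54.5% of all 6940 positions. Over the last 7 positions the means were 145 ppm with ZAK-alpha-RBR and 147 ppm with the mock.

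A broader rule averages both profiles over 15 positions and asks for at least 2-fold from the median ratio of 28S over at least 10 positions in a row. It called 3 lower regions in the range, at 3722 to 3744, 3813 to 3825 and 3858 to 3886. Their 65 positions are 21.7% of the range, where 9.73% of all positions lay in called lower regions. Their averaged log2 ratios reached -1.76, -1.11 and -2.24. The region at 3813 to 3825 was not called with a 3-fold limit, a window of 31 positions or library totals as the baseline. No higher region was called, where 4.73% of all positions lay in one. The block around 3842 came closest, with an averaged log2 ratio of 1.07 at 3843, or 0.92 above the 28S median ratio, and was called at 3838 to 3848 with a limit of 1.5-fold.

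Many of the sharp changes of the ZAK-alpha-RBR profile fell between a C and an A. A fall in depth counts reads that end at the C, a rise counts reads that start at the A, and where both occur at the same step only their difference is seen. The range holds 15 such steps among its 299 pairs of neighbours (5.02%). They held 29.0% of the summed falls and 18.4% of the summed rises of ZAK-alpha-RBR depth, against 19.4% and 12.5% for mock depth. In the rest of both rRNAs they held 20.8% of falls and 19.3% of rises for ZAK-alpha-RBR, and 11.9% and 11.3% for the mock, with steps from C to A making up 3.63% of the pairs. Of the 5 largest falls of the ZAK-alpha-RBR library in the range, 4 were at steps from C to A and 1 at a step from U to A, and the 5 largest falls of the mock had the same split. Of the 5 largest rises, 2 were at steps from C to A with ZAK-alpha-RBR and 3 in the mock.

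Depth changed at least 1.5-fold across 9 of the 15 steps with ZAK-alpha-RBR and across 2 with the mock. Over all 256 steps from C to A of both rRNAs, 52.3% changed that much for ZAK-alpha-RBR and 8.98% for the mock, so the range was close to this background. Across the 284 other pairs of neighbours in the range, depth changed at least 1.5-fold at 5 (1.76%) with ZAK-alpha-RBR and at 2 (0.704%) with the mock, where 5.04% and 4.4% of all such pairs of both rRNAs did. The relative change was larger in the ZAK-alpha-RBR library at 13 of the 15 steps, and 4 steps changed in opposite directions. The largest opposite change was the one from 3855 to 3856. At the step after 3893 the mock changed more: the ZAK-alpha-RBR depth was 975 reads at the C and 946 at the A, while the mock had 19977 and 14177. Whether the way the RNA was cut or joined to adaptors has a part in the runs was not tested.

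**Figure D3:**
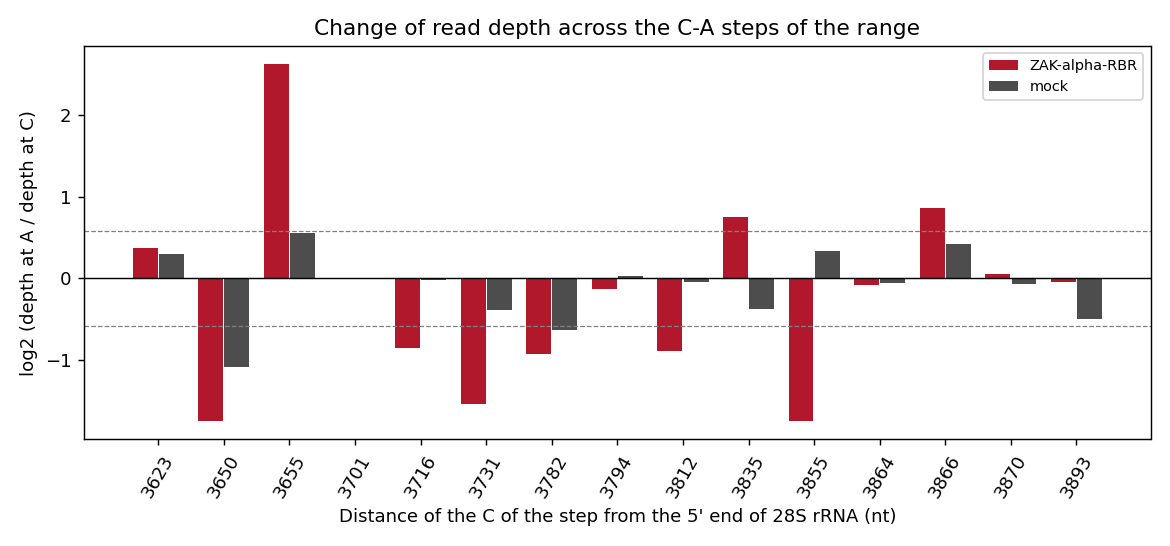
The log2 of depth at the A over depth at the C for the 15 steps from C to A in the range, with ZAK-alpha-RBR in red and mock in grey, ordered by the position of the C. Dashed lines mark 1.5-fold, which 9 red and 2 grey bars pass, and at 3835 and 3855 the red and grey bars point in opposite directions.

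The lower runs also differed in their bases. Of their 63 positions 42.9% were A, and of the 227 positions outside the 5 runs 23.8% were. G and C made up 46.0% of the lower runs and 53.7% of the positions outside. By base, 27 of the 83 A positions of the range (32.5%) were at least 2-fold lower with ZAK-alpha-RBR, where 20.4% of all A positions of both rRNAs were. The counts were 19 of 85 at G (22.4%, against 8.86% of all G), 10 of 71 at C (14.1%, against 8.8% of all C) and 7 of 61 at U (11.5%, against 15.3% of all U). A thus had the highest share in both rRNAs as a whole as well. The median log2 ratio was -0.63 at A and -0.040 at C. Runs of several positions share reads, so these counts rest on 4 stretches and not on 63 separate positions, and the part of base composition was not tested.

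The neighbouring stretches of 28S had other values. The 300 positions upstream, up to 3600, had a median log2 ratio of 0.40. Of these 300, 18 (6.0%) were at least 2-fold higher and 1 (0.333%) at least 2-fold lower. The upstream stretch was thinly covered, at 48.7 ppm with ZAK-alpha-RBR and 38.6 ppm with the mock. Of its bases 88.7% were G or C, against 52.0% in the range. The 300 positions downstream, 3901 to 4200, had a median of 0.29, with 51 higher (17.0%) and 24 lower positions (8.0%). Of all 6940 positions 9.31% were at least 2-fold higher and 11.9% at least 2-fold lower. Of the positions of the range 34.3% had more ppm with ZAK-alpha-RBR, against 90.7% upstream, 64.0% downstream and 54.5% of all 6940 positions.

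**Figure D4:**
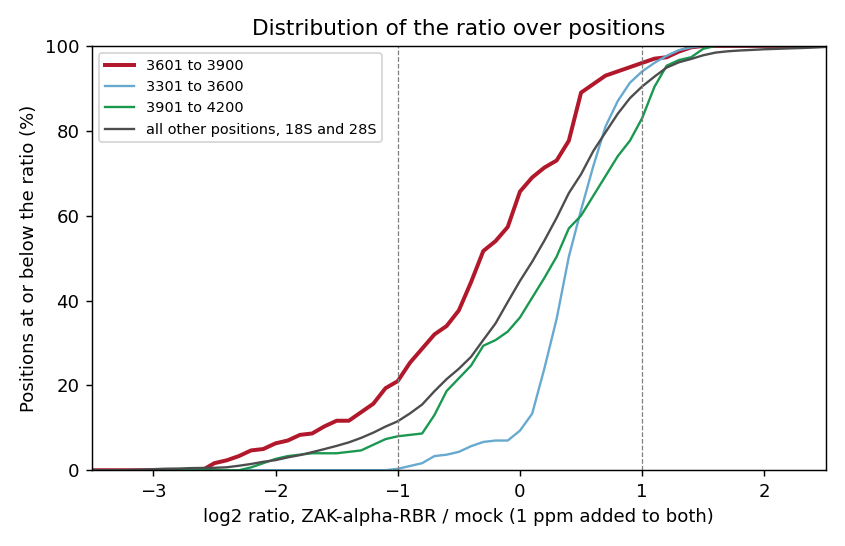
Cumulative percentage of positions at or below each log2 ratio of ZAK-alpha-RBR over mock, for the range, the 300 positions on either side and all other positions of both rRNAs. The curve of the range lies to the left of the others over most of its course, with 21.0% of its positions at or below -1 and medians of -0.33 in the range and 0.12 elsewhere.

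The courses of the profiles were also less alike in the range. Across its 300 positions the log2 coverages correlated with r = 0.29, against 0.82 over the rest of 28S, 0.92 over the upstream stretch and 0.72 over the downstream one. These are descriptions across positions that share reads. The range also spans a narrower set of levels: the coefficient of variation of coverage was 47.7% for ZAK-alpha-RBR and 34.7% for the mock in the range, against 77.3% and 82.5% over the rest of 28S. In tiles of 25 positions, 5 of the 12 tiles had a higher mean with ZAK-alpha-RBR and 7 a lower one. The log2 ratio was lowest in the tile at 3851 to 3875, at -1.34, and highest in the tile directly before it, at 0.52.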

How the data were processed

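Positions 3601 to 3900 of 28S rRNA were taken from RNA of 2 pull-downs in U2OS cells. Per the labels' protocols, adaptors were joined by an engineered tRNA ligase that seals cyclic phosphate ends, and an Ion Proton was used for sequencing. Cutadapt 2.0 and Bowtie2 2.3.4.1 are named in the submitters' processing notes. Neither the reference and strand handling nor the treatment of duplicate or multiply placed reads is stated there. The authors deposited a coverage signal per rRNA position, normalized per the file headers. The ZAK-alpha-RBR column sums to the mock total. Of its values 100% are multiples of 11.5 by a whole number (within 0.001 of a read), and these whole numbers are the read depths used for intervals. Summed depth was 6835941 for ZAK-alpha-RBR and 78749474 for the mock.

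Depths were divided by library totals. Ratios carry a pseudocount of 1 ppm, while folds of means and single positions carry none. No filter on low values was used. Intervals are exact Poisson (depths) and Clopper-Pearson (shares, ratios of depths) at 95%, and since reads without molecular identifiers may be copies, they may be too narrow. Positions named are the called regions, runs of at least 5 positions, the 5 highest and 3 lowest depths, the 5 highest and 5 lowest ratios at least 10 positions apart, the largest steps, 2 motifs, perfect stems of at least 6 pairs and extreme tiles. The stretches between large steps, the predicted fold, and counts by base and by step size were added after the profiles were seen. Members, lists and rules were chosen with earlier results of these data known. Alternatives covered scaling, pseudocounts, a filter, window, limit, baseline, segment width, tile length, the edges of the range and filled dips. Tools were Python 3.11.15, numpy 2.4.6, pandas 2.3.3, scipy 1.17.1, matplotlib 3.10.9 and RNAfold 2.7.2. The region rule was checked on simulated data. Its planted segments were longer than the regions called in the range, and its read ends were not tied to base steps. The check therefore cannot show how the rule works on such short regions or with such read ends. The sequence of 1 run is not reported here.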

Additional observations from a re-analysis of the deposited data

How the results depend on the processing

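No replicate could be left out with a single library in each group, and no paired analysis was possible because each group has 1 library without a replicate number. Of 180 recomputed values, 125 stayed within their counting interval or within 1.5 times the count, 51 moved beyond it and 4 turned sign. The count of lower positions was between 58 and 76 under all its alternatives. The count of higher positions was between 9 and 14, except 23 with the edges moved outwards by 25 positions. The median log2 ratio was -0.44 with scaling by the median of ratios, which shifts the median of all positions by -0.10, and -0.15 with the edges moved outwards. The 3 lower regions were found again under the other pseudocounts, and 2 of them with a window of 31 positions, a 3-fold limit or library totals as the baseline. All 3 also returned under every scaling, but the rule measures from the median ratio of 28S, which moves with the scaling. The outcome under scaling was therefore nearly fixed in advance. A 1.5-fold limit added 1 higher region. Tiles of 50 positions left 0 at least 2-fold lower, where tiles of 25 positions had 2. The helix 69 segment had log2 ratios of 0.40 (median of ratios), 0.56 (within each molecule), 0.62 (5 positions on each side) and 0.081 (20 positions on each side). The segment of the motif labelled helix 71 had -0.10 with the median of ratios and -0.13 with 5 positions on each side. It turned sign to 0.064 within each molecule and to 0.19 with 20 positions on each side. It also turned sign, to 0.052, with the totals taken without the strongest called 18S region (419 to 479). That alternative was chosen after seeing the data. The first tile, up to 3625, turned sign to -0.089 with the median of ratios. As a share of 28S coverage alone the range held 8.69% for ZAK-alpha-RBR and 9.93% for the mock. As a share of both rRNAs it held 6.70% and 7.42% with edges moved outwards, and 4.73% and 5.58% with edges moved inwards. Once the dips inside homopolymers were filled, steps from C to A held 35.1% of falls and 23.3% of rises with ZAK-alpha-RBR, and 21.0% and 16.7% in the mock. Apart from what these settings change by construction, the cause was not tested. The lowest depth in the range was 107 reads for ZAK-alpha-RBR and 3887 for the mock.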

Other observations

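Inside runs of equal bases, depth dipped by at least 20% below the lower of the 2 depths that flank the run in both libraries at 2 positions. At the A at 3646, the start of a run of A, the depth was 203 reads for ZAK-alpha-RBR and 4056 for the mock, dips of 43.9% and 50.8%. At the A at 3651 the dips were 47.5% for ZAK-alpha-RBR and 42.9% for the mock. At 3 further positions the limit was passed with ZAK-alpha-RBR and not with the mock: 23.0% against 17.1% at the G at 3625, 25% against 16.2% at the A at 3652 and 20.1% against 11.2% at the A at 3653. At the G at 3753 the dip was 15.1% for ZAK-alpha-RBR and 22.0% for the mock.

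Perfect stems of at least 6 pairs with a loop of 3 to 12 bases numbered 4 in the range, the helix 69 hairpin among them. The stem at 3676 to 3690 averaged 254 ppm with ZAK-alpha-RBR and 333 ppm in the mock, the one at 3791 to 3809 had 166 and 191 ppm, and the one at 3868 to 3887, inside the last lower region and beyond it by 1 position, had 136 and 315 ppm. The helix 69 hairpin was thus the only one of the 4 with more coverage in the ZAK-alpha-RBR library.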
